A study of Mus musculus with 48 samples.

Results

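Interferon-stimulated genes are described here across mouse livers given modified gapmer antisense oligonucleotides. The set was a list of 41 gene symbols, looked up by name in a table of 23930 genes. Of the 41, 38 had a row in that table and all 38 passed the filter on low counts. Ifit3, Isg15 and Iigp1 were not analysed here. The list was not chosen by a threshold on measured values, but earlier results of these data were known when it was drawn up.

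Gene expression was measured in 48 liver libraries from mice given LX-A1656, LX-A2003 or LX-A3928, which are gapmers directed against Scarb1, or PBS, the vehicle. Each treatment was sampled at 24 h, 72 h and 168 h after the first administration, with 4 libraries in each of the 12 groups. A gapmer is an antisense strand with a DNA core and chemically modified ends, which pairs with its target RNA and directs RNase H to cut it. Strain, sex, age, dose, later doses, the oligonucleotide sequences and their chemical differences were not given in the sources used here. The labels name no genetic change in any group, and the PBS groups are the only controls, so no oligonucleotide with a different target was available for comparison. Whether the 4 libraries of a group represent 4 animals is not stated in the labels. The p-values therefore rest on the spread between libraries within groups, part or all of which may be technical. The model shares that spread over all 12 groups, so it is not the spread of the compared groups alone.

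Interferons are secreted proteins that signal through paired receptors and JAK kinases. Type I and type III interferons lead a complex that holds STAT2 and IRF9 to the interferon-stimulated response element of target promoters. The induced proteins sense foreign RNA, block translation, edit or degrade nucleotides, trap viruses and limit the signal itself. In liver, hepatocytes, resident macrophages (Kupffer cells), endothelial cells and recruited leukocytes all carry interferon receptors.

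The response element can be seen in the promoters of several of the genes. The RefSeq table (GRCm38.p6) held promoter windows, from 250 bases before to 50 bases after the gene start, for 33 of the 41 symbols. The core of the response element, searched as 2 GAAA half-sites with any 2 bases between them on either strand, was present in 16 of the 33 genes, or 48.5%, against 3.99% of all 27025 genes in the table. The letters TTCNNNGAA of the gamma-activated site, the promoter element of the interferon gamma response, which read the same on both strands, were present in 8 of the 33, or 24.2%, against 9.55% of all genes. The 2 motifs overlapped at 1 place, in the Bst2 window. The 8 stretches below, of 60 bases each and all upstream of the start used in the promoter table, show the core in genes on which the results turn. Capitals mark the core, as GAAA half-sites or, on the opposite strand, as TTTC half-sites, with overlapping copies run together. In the RefSeq gene table of the same build, the gene spans of Gbp3, Oas1a and Ddx60 begin farther upstream, so that 24, 19 and 14 bases of their stretches lie inside the span. A match is a description of letters, not evidence of a bound site.
Ifit1, chr19:34640779-34640838 plus strand: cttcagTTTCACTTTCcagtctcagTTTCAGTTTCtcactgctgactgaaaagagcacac
Rsad2, chr12:26456538-26456597 minus strand: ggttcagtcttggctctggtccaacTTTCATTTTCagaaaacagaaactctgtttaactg
Oas1a, chr5:120907526-120907585 minus strand: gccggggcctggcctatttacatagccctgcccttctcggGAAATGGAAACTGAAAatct
Oas3, chr5:120777700-120777759 minus strand: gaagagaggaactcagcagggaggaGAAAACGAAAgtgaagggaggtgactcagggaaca
Gbp3, chr3:142559980-142560039 plus strand: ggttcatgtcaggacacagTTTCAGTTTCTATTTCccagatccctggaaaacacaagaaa
Irgm1, chr11:48871421-48871480 minus strand: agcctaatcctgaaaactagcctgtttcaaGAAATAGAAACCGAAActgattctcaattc
Igtp, chr11:58199496-58199555 plus strand: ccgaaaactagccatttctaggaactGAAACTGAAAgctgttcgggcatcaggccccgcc
Ddx60, chr8:61928027-61928086 plus strand: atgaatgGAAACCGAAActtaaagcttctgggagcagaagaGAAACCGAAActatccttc

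Ifit1 and Ddx60 carried the core at separate places, and Gbp3, Oas1a and Irgm1 carried overlapping copies. Igtp and Oas3 each carried 1 copy in the stretch shown. Irf7, Oasl1, Cmpk2, Irf9 and Xaf1 had no match to either motif in the 300-base window, which says only that these letters are not there.

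Levels are given in CPM, the count of a gene scaled to a common library total, adjusted between libraries with TMM factors, and each reports on 1 amplified fragment of a gene. Fold changes are log2 values ± SE from 1 edgeR quasi-likelihood fit to all 48 libraries. A gene is called when its Benjamini-Hochberg adjusted p over the 12672 genes tested is under 0.05. Library totals were 8140065 to 17191129 counts. Scarb1 was 3.36 to 10.7 CPM in oligonucleotide libraries at 72 h, against 293 to 315 CPM in PBS libraries at 72 h, and oligonucleotide libraries lay below PBS libraries at each time. It could not be checked how reads were divided between near relatives, such as the Oas1, Oasl, Mx, Gbp and Ifit genes, and levels of such genes carry that uncertainty.

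Single libraries stood apart in this gene set. The same counts were not made over all genes. LX-A3928 replicate 3 at 168 h had the highest level of its group for 25 of the 38 genes, and LX-A2003 replicate 4 at 168 h for 23 of 38. LX-A1656 replicate 4 at 168 h had the lowest level of its group for 23 of 38, and LX-A2003 replicate 1 at 72 h for 25 of 38. LX-A3928 replicate 3 at 168 h also differed from its group over all genes tested. The chi-square of counts per degree of freedom was 130 to 213 between it and the others, and 14.0 to 82.8 among those others. For the 38 genes, the effect of leaving out one of these libraries at 168 h is stated beside each named value whose call it ended or which it moved by over 1.5 times. Genes outside the 38 were not examined in this way.

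The set was close to PBS levels at 24 h, with slightly higher sums, and high at 72 h with LX-A1656. It was moderately raised at 72 h with LX-A2003 and LX-A3928, and high with all 3 oligonucleotides at 168 h. Summed over the 38 genes, the level at 24 h was 1198 ± 44.2 CPM with LX-A1656, 1175 ± 58.4 CPM with LX-A2003 and 1178 ± 47.6 CPM with LX-A3928, against 1106 ± 46.3 CPM with PBS (SD, n = 4 each). The LX-A1656 libraries, at 1160 to 1256 CPM, lay above the PBS libraries, at 1051 to 1146 CPM, and those of LX-A2003 and LX-A3928 overlapped PBS. At 72 h the sum was 3085 ± 174 CPM with LX-A1656, 1433 ± 94.3 CPM with LX-A2003 and 1352 ± 17.9 CPM with LX-A3928, against 1057 ± 11.2 CPM with PBS (SD, n = 4 each). At 168 h the sums were 1598 ± 35.7 CPM, 1743 ± 87.8 CPM and 2074 ± 347 CPM in the same order, against 1050 ± 11.7 CPM with PBS. The LX-A3928 libraries at 168 h summed to 1959, 1954, 2583 and 1801 CPM, and their mean without replicate 3 was 1905 ± 89.9 CPM (SD, n = 3). The summed level with LX-A1656 was thus lower at 168 h than at 72 h, and that with the other oligonucleotides was higher. In bulk tissue, a different number of cells of a type and a different amount of RNA per cell cannot be told apart.

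**Figure D1:**
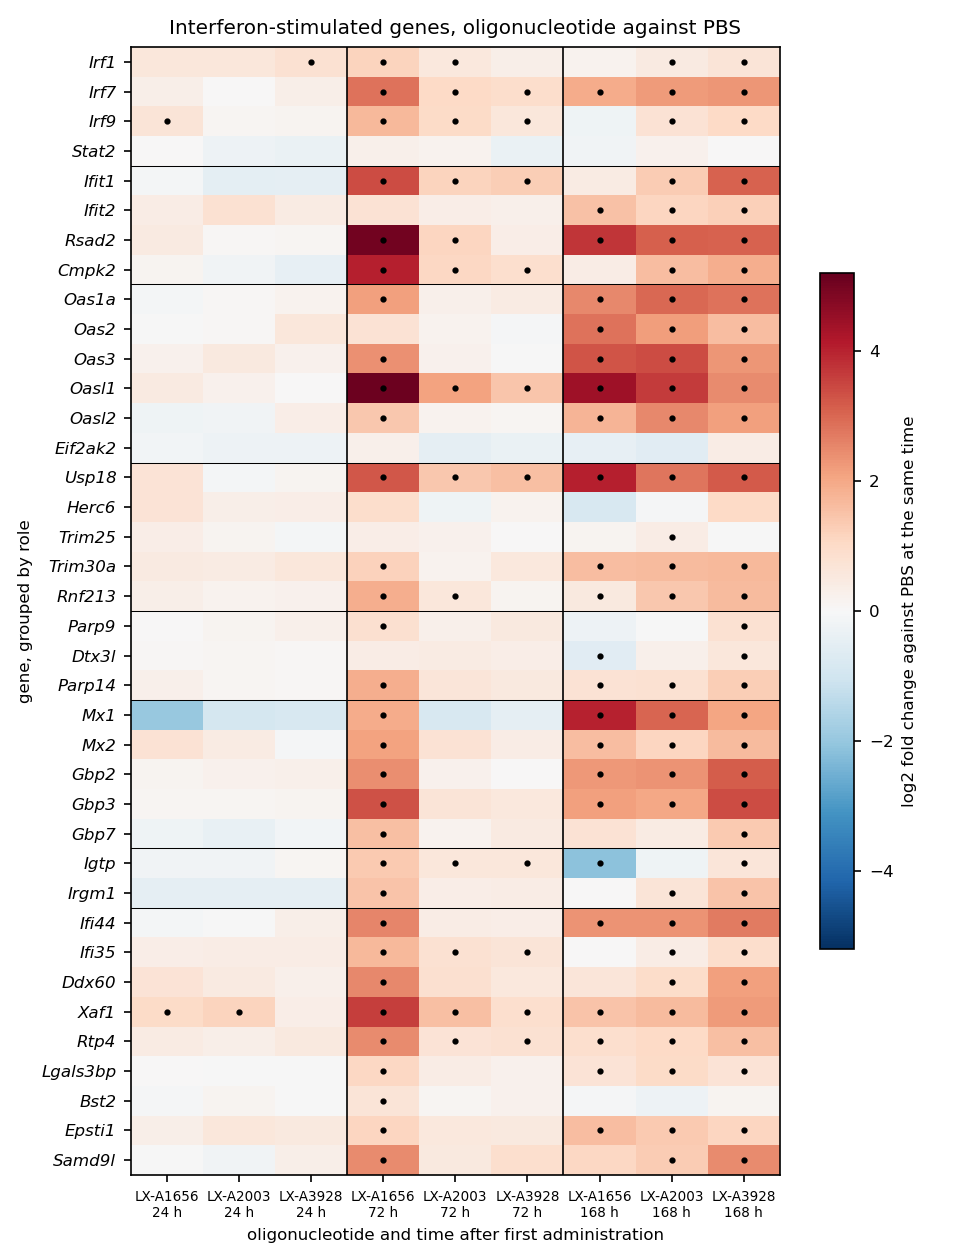
Heat map of the log2 fold change against PBS at the same time (colour, red higher and blue lower) for the 38 genes with a row, grouped by role from transcription factors at the top, in 9 columns of oligonucleotide and time. Dots mark adjusted p under 0.05, and the red block begins at 72 h with LX-A1656 and spreads to all 3 oligonucleotides at 168 h, while Igtp turns blue with LX-A1656 at 168 h.

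At 24 h, 2 of the 38 genes were called higher with LX-A1656, and the number was 1 for LX-A2003 and 1 for LX-A3928. None was called lower. Of all genes tested, 2.86%, 2.09% and 3.26% were called in either direction in these comparisons. They divided into 0.986% higher and 1.88% lower with LX-A1656, 0.939% higher and 1.15% lower with LX-A2003, and 1.68% higher and 1.58% lower with LX-A3928. The median log2 fold change of the 38 was 0.18, 0.11 and 0.17, against 0.02, 0.01 and 0.01 over all genes tested. All LX-A1656 libraries lay above all PBS libraries for 10 of the 38 and below them for 2, where 5.56% and 6.19% of all genes did. The numbers were 3 and 3 with LX-A2003 (6.17% and 6.43% of all genes) and 6 and 2 with LX-A3928 (8.7% and 8.04%). The called genes were Xaf1 and Irf9 with LX-A1656, Xaf1 with LX-A2003 and Irf1 with LX-A3928.

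Xaf1, whose product binds the caspase inhibitor XIAP, stood at 5.15, 3.17, 4.64 and 3.74 CPM in the 4 LX-A1656 libraries at 24 h, at 5.08, 4.07, 5.78 and 3.49 CPM with LX-A2003 and at 3.32, 2.05, 2.13 and 2.95 CPM with LX-A3928, against 1.53, 2.37, 2.45 and 2.04 CPM with PBS. The LX-A1656 and LX-A2003 libraries lay above all PBS libraries, and the LX-A3928 libraries overlapped them. The log2 fold change was 1.00 ± 0.28 with LX-A1656 (adjusted p = 0.0378, edgeR quasi-likelihood test) and 1.15 ± 0.27 with LX-A2003 (adjusted p = 0.0128).  The LX-A1656 call was lost in 6 of 8 fits that left out 1 library of the compared groups, with the adjusted p at 0.185 without PBS replicate 1, and the LX-A2003 call was lost without LX-A2003 replicate 3 (adjusted p = 0.082) or PBS replicate 1 (adjusted p = 0.0893).

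Irf9, the DNA-binding partner of STAT2, was 46.9, 42.9, 57.3 and 41.4 CPM with LX-A1656 at 24 h, against 30.6, 26.9, 32.2 and 29.5 CPM with PBS, with no overlap between the groups. Its log2 fold change was 0.66 ± 0.15 (adjusted p = 0.00463, edgeR). Irf1, a transcription factor induced by both type I interferon and interferon gamma, was 81.1, 89.5, 96.7 and 69.1 CPM with LX-A3928, against 45.6, 42.0, 51.7 and 54.1 CPM with PBS, for a log2 fold change of 0.80 ± 0.17 (adjusted p = 0.00257). The Irf1 libraries of LX-A1656 and LX-A2003 at 24 h also lay above every PBS library, at log2 fold changes of 0.57 and 0.59, but without a call, which LX-A2003 gained without its replicate 1 (adjusted p = 0.0489).

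At 72 h, 31 of the 38 genes were called higher with LX-A1656, and the numbers were 13 for LX-A2003 and 10 for LX-A3928. None was called lower. Of all genes tested, 48.2%, 12% and 9.8% were called in either direction, divided into 24.7% higher and 23.4% lower with LX-A1656, 5.48% higher and 6.55% lower with LX-A2003, and 4.47% higher and 5.33% lower with LX-A3928. The median log2 fold change of the 38 was 1.79, 0.46 and 0.41 in the same order, against 0.05, 0.02 and 0.02 over all genes. The 3 comparisons share the same PBS libraries.

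At 168 h, 21 of the 38 were called higher and 2 lower with LX-A1656, 30 were called higher with LX-A2003 and 33 with LX-A3928. Of all genes tested, 63.9%, 55.1% and 48% were called in either direction, divided into 34.1% higher and 29.7% lower with LX-A1656, 29.8% higher and 25.3% lower with LX-A2003, and 27.3% higher and 20.7% lower with LX-A3928. The median log2 fold change of the 38 was 0.82, 1.22 and 1.62 in the same order, against 0.10, 0.04 and 0.08 over all genes. Without LX-A3928 replicate 3, 29 genes were called with that oligonucleotide. Over the 38 genes, the median SD as a percentage of the mean was 38.3% with LX-A3928 at 168 h and 14.0% to 28.2% in the other groups. A fit to the LX-A3928 and PBS libraries at 168 h alone lost the calls of Dtx3l, Gbp7, Ifit2, Igtp, Lgals3bp and Parp9. Their adjusted p was then 0.0681 to 0.135 (edgeR). Scaling by library totals in place of TMM moved the median of all genes at 168 h with LX-A1656 to 0.56, and 30 of the 38 were then called higher and 1 lower. The same scaling moved that median to 0.45 with LX-A2003 and 0.39 with LX-A3928 at 168 h and to 0.27 with LX-A1656 at 72 h, so levels at these times are relative to the scaling used.

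The median over the 38 genes was also taken in each library. This value is the median of log2(CPM + 1) minus its mean over the 12 PBS libraries. At 24 h it was 0.22, 0.20, 0.35 and 0.23 in the LX-A1656 libraries, above the 0.09, -0.08, 0.14 and 0.16 of the PBS libraries. It was 0.24, 0.15, 0.17 and 0.14 with LX-A2003, which overlapped PBS, and 0.22, 0.17, 0.21 and 0.25 with LX-A3928, which lay above PBS. At 72 h it was 1.76, 1.43, 1.61 and 1.61 in the LX-A1656 libraries, against 0.05, -0.02, 0.03 and 0.13 in the PBS libraries. The LX-A2003 libraries at 72 h (0.22, 0.56, 0.56 and 0.64) overlapped those of LX-A3928 (0.45, 0.50, 0.50 and 0.33). At 168 h the median was 0.59, 0.87, 0.76 and 0.61 with LX-A1656 and 0.66, 0.99, 1.05 and 1.24 with LX-A2003. It was 1.39, 0.99, 1.61 and 0.80 with LX-A3928, against -0.26, -0.03, -0.18 and -0.02 with PBS. At 168 h the libraries of the 3 oligonucleotides overlapped each other.

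**Figure D2:**
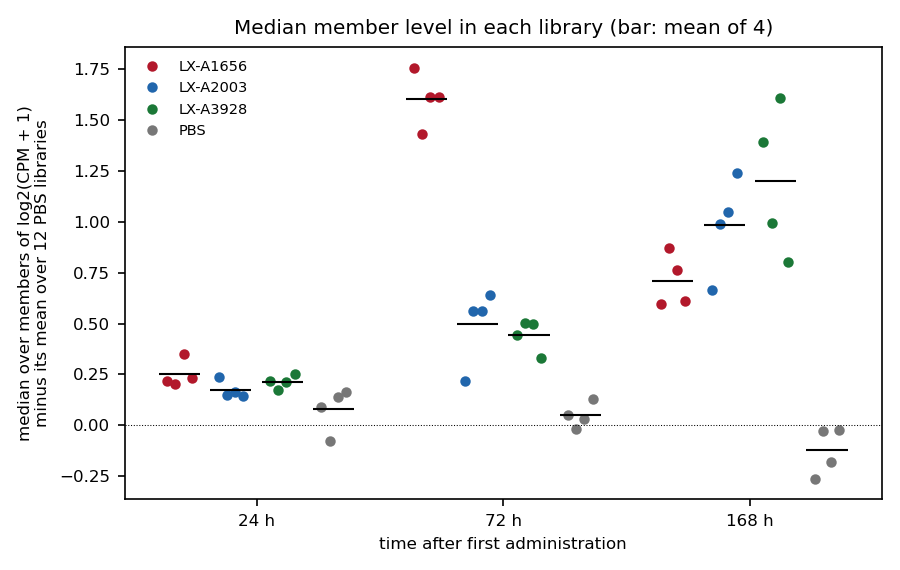
Median over the 38 genes of log2(CPM + 1) minus its mean over 12 PBS libraries, for every library (dots) with the mean of 4 (bar), by time after first administration, oligonucleotides left of PBS. The LX-A1656 libraries stand highest at 72 h, and at 168 h all 12 oligonucleotide libraries lie above the 4 PBS libraries.

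Among the transcription factors, Irf7, Irf9 and Irf1 were called higher in several groups and Stat2 in none. Irf7 drives the amplification of type I interferon and was called with each oligonucleotide at 72 h and at 168 h. It stood at 189.7, 114, 169.5 and 139 CPM with LX-A1656 at 72 h, at 48.5, 52.3, 37.7 and 38.5 CPM with LX-A2003 and at 46.3, 32.8, 36.3 and 46.4 CPM with LX-A3928, against 25.2, 25.8, 18.9 and 17.3 CPM with PBS, without overlap. The log2 fold changes were 2.81 ± 0.16, 1.02 ± 0.16 and 0.89 ± 0.16. At 168 h they were 1.92 ± 0.16, 2.20 ± 0.16 and 2.29 ± 0.16, so that the 3 oligonucleotides lay closer together. The difference between LX-A3928 and LX-A1656 at 168 h was 0.38 ± 0.15 (adjusted p = 0.0407, edgeR), with groups that overlapped, and this call was lost in 5 of 8 fits that left out 1 library.

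Irf9 followed another course. At 72 h Irf9 was 96.6 ± 6.21 CPM with LX-A1656, 59.7 ± 5.83 CPM with LX-A2003 and 55.5, 36.9, 44.8 and 44.7 CPM in the 4 LX-A3928 libraries, against 31.8, 29.7, 32.6 and 26.6 CPM with PBS (SD, n = 4). The LX-A3928 change, 0.60 ± 0.15 on the log2 scale, was the smallest called with that oligonucleotide at 72 h. At 168 h Irf9 was 25.0, 29.0, 24.8 and 16.6 CPM with LX-A1656, against 24.1, 28.9, 31.1 and 27.8 CPM with PBS, and the groups overlapped (log2 fold change -0.23 ± 0.15, adjusted p = 0.181, and 0.26 with scaling by library totals). With LX-A2003 and LX-A3928 it was called higher at 168 h, by 0.76 ± 0.15 and 1.04 ± 0.15.

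Irf1, the transcription factor with the highest mean level of the 4, was 143, 142, 125 and 123 CPM with LX-A1656, 81.1, 90.2, 93.1 and 86.7 CPM with LX-A2003 and 50.5, 100.3, 75.0 and 68.0 CPM with LX-A3928 at 72 h, against 64.2, 50.2, 76.2 and 47.0 CPM with PBS. LX-A1656 and LX-A2003 libraries lay above PBS, at log2 fold changes of 1.16 ± 0.17 and 0.56 ± 0.17, and LX-A3928 libraries overlapped PBS. The LX-A2003 call was lost without LX-A2003 replicate 3 or without PBS replicate 2 or 4, with adjusted p up to 0.0949. At 168 h Irf1 was 56.8, 58.5, 58.7 and 61.1 CPM with LX-A1656, 59.9, 97.5, 74.3 and 59.7 CPM with LX-A2003 and 77.8, 77.6, 64.0 and 116 CPM with LX-A3928, against 47.2, 57.0, 55.2 and 50.5 CPM with PBS, and it was called with LX-A2003 and LX-A3928. Without LX-A2003 replicate 2 the LX-A2003 value was 0.30 ± 0.17 (adjusted p = 0.143). Stat2, a subunit of the same complex as Irf9, ranged in log2 fold change from -0.33 to 0.27 over the 9 comparisons.

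Of the IFIT, viperin and CMPK2 group, 3 of 4 tested genes were called higher with LX-A1656 at 72 h, and all 4 with LX-A2003 and with LX-A3928 at 168 h. Rsad2 encodes viperin, an enzyme that makes a chain-terminating nucleotide, and Cmpk2, a nucleotide kinase gene, is its neighbour on chromosome 12, 12664 bases away. Rsad2 was 162, 212, 272 and 212 CPM with LX-A1656 at 72 h, 14.9, 11.8, 17.9 and 12.9 CPM with LX-A2003 and 9.29, 8.63, 9.25 and 6.63 CPM with LX-A3928, against 6.33, 5.85, 6.61 and 7.57 CPM with PBS. LX-A1656 libraries were far above all others, LX-A2003 libraries were above PBS, and LX-A3928 libraries overlapped PBS. On the log2 scale the changes were 5.02 ± 0.29, 1.13 ± 0.27 and 0.36 ± 0.28.

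At 168 h Rsad2 was 42.8, 60.4, 58.7 and 39.7 CPM with LX-A1656, 26.6, 23.0, 30.5 and 49.8 CPM with LX-A2003 and 38.5, 25.5, 46.8 and 18.7 CPM with LX-A3928, against 3.01, 4.66, 1.48 and 5.96 CPM with PBS. Every oligonucleotide library was above every PBS library. For Cmpk2, levels at 168 h were 14.3, 15.4, 14.3 and 10.5 CPM with LX-A1656, against 8.67, 9.00, 15.9 and 8.50 CPM with PBS, for a log2 fold change of 0.38 ± 0.20 (adjusted p = 0.0836). At 72 h the Cmpk2 change with LX-A1656 had been 4.05 ± 0.21. Without PBS replicate 3, in which Cmpk2 was highest, the 168 h value was 0.65 ± 0.20 (adjusted p = 0.00461), and without LX-A1656 replicate 4 it was 0.49 ± 0.20 (adjusted p = 0.0367), with a call in each case.

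Ifit1, whose product binds RNA with an unmethylated cap, was 111, 103, 95.5 and 118 CPM with LX-A1656 at 72 h, against 9.13, 8.06, 9.86 and 13.3 CPM with PBS, a log2 fold change of 3.40 ± 0.41. At 168 h Ifit1 was 11.4, 20.1, 15.8 and 9.57 CPM with LX-A1656, 18.9, 20.1, 30.2 and 36.1 CPM with LX-A2003 and 41.4, 27.7, 259 and 31.6 CPM with LX-A3928, against 12.8, 9.93, 11.3 and 8.38 CPM with PBS. LX-A1656 libraries overlapped PBS, and LX-A3928 replicate 3 was far above the rest of its group. The log2 fold change with LX-A3928 was 3.08 ± 0.41, and 1.66 ± 0.22 without that library, still called (adjusted p = 1.77e-08, edgeR). Ifit2 stayed under 5 CPM in every library. Its call with LX-A2003 at 168 h, 1.12 ± 0.45, became 0.45 ± 0.46 without replicate 4 (adjusted p = 0.413), and that with LX-A3928, 1.23 ± 0.45, became 0.81 ± 0.46 without replicate 3 (adjusted p = 0.145). Both Ifit2 calls were also lost without PBS replicate 1 or 3, and that with LX-A3928 without its replicate 1.

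**Figure D3:**
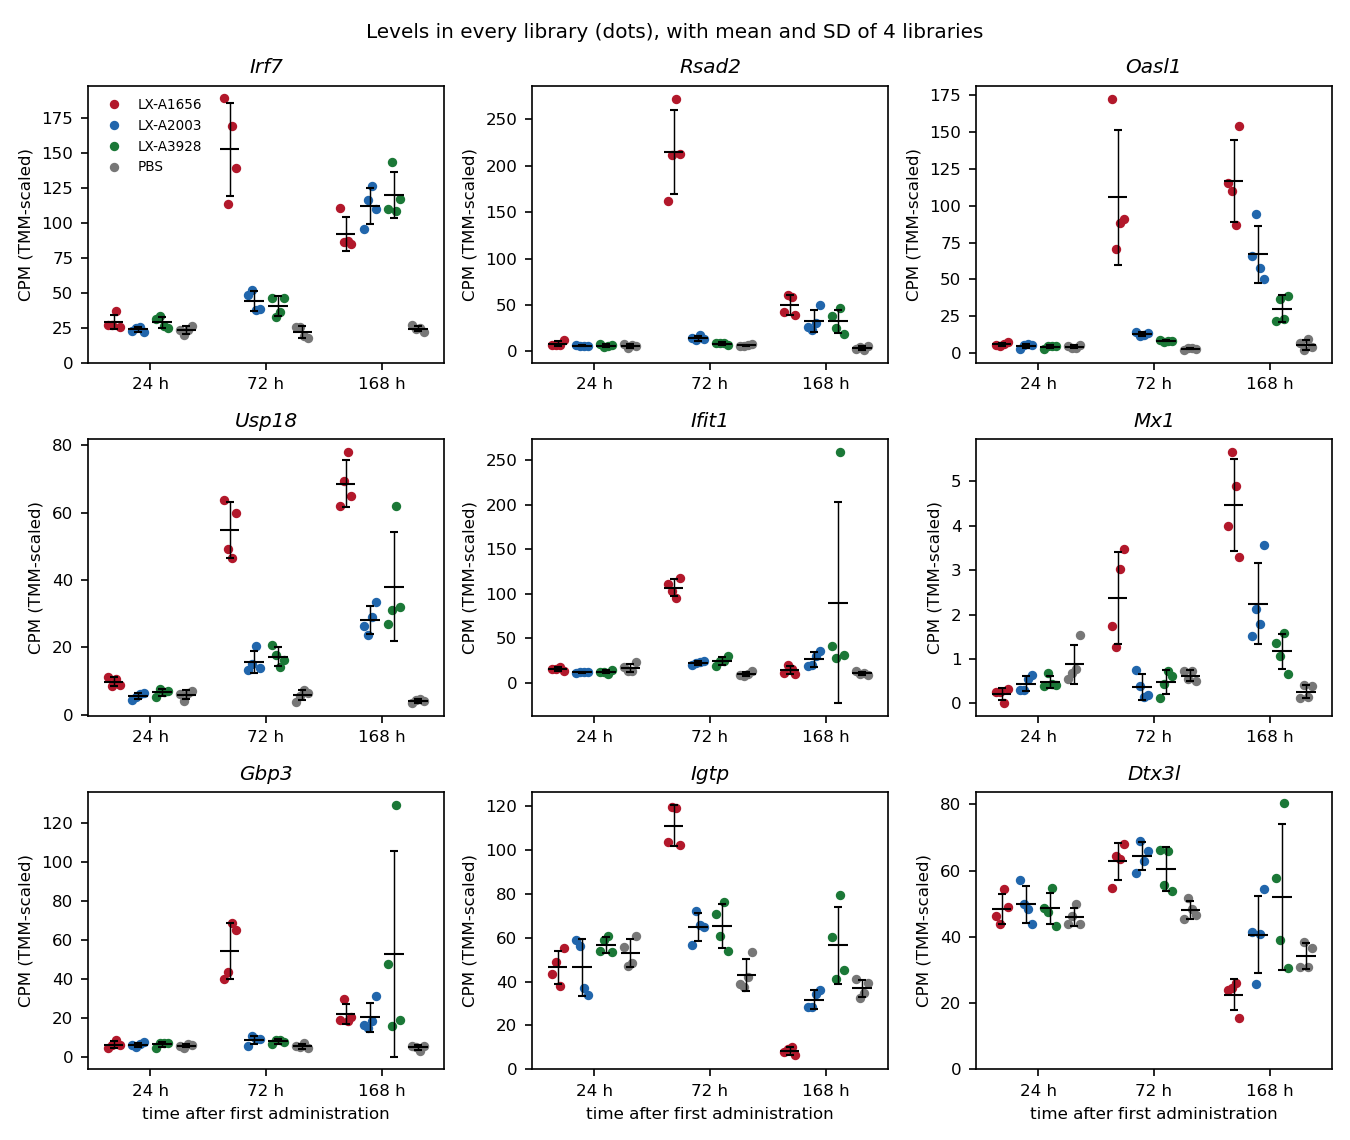
Levels (CPM, TMM-scaled) of 9 of the genes in every library (dots) with mean and SD of 4, by time after first administration, oligonucleotides left of PBS. Irf7, Rsad2, Oasl1 and Usp18 stay above PBS at 168 h with LX-A1656, Ifit1 libraries overlap PBS, Igtp and Dtx3l fall below it, and 1 LX-A3928 library stands apart for Ifit1 and Gbp3.

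The OAS genes encode enzymes and relatives that bind double-stranded RNA. The enzymes make the 2-5A messenger that activates RNase L. Of the 6 genes of this group, which includes the translation-blocking kinase gene Eif2ak2 (PKR), 4 were called higher with LX-A1656 at 72 h and 5 with each oligonucleotide at 168 h. Oasl1, which in mouse is known to limit translation of Irf7, was 173, 70.6, 88.3 and 91.0 CPM with LX-A1656 at 72 h, 14.4, 11.7, 12.6 and 13.6 CPM with LX-A2003 and 8.73, 7.85, 8.30 and 8.49 CPM with LX-A3928, against 2.43, 3.20, 3.61 and 2.99 CPM with PBS. The groups did not overlap PBS, and LX-A1656 replicate 1 was the highest library. The log2 fold changes, 5.11 ± 0.32, 2.09 ± 0.31 and 1.45 ± 0.31, included the largest of the set for LX-A1656 and LX-A2003 at 72 h.

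At 168 h Oasl1 was 116, 109.8, 87.0 and 154 CPM with LX-A1656, 65.9, 94.8, 57.9 and 50.3 CPM with LX-A2003 and 22.1, 36.8, 22.9 and 39.1 CPM with LX-A3928, against 6.78, 2.07, 9.42 and 3.93 CPM with PBS. The order of the oligonucleotides was the same as at 72 h, with LX-A3928 libraries below all LX-A2003 and LX-A1656 libraries. The log2 fold changes against PBS were 4.41 ± 0.30, 3.62 ± 0.30 and 2.47 ± 0.29. Oas3 had log2 fold changes of 3.29 ± 0.36, 3.40 ± 0.36 and 2.30 ± 0.37 at 168 h. Its levels were 4.77, 7.23, 3.65 and 8.42 CPM with LX-A3928, below the 12.6, 18.7, 12.3 and 8.99 CPM of LX-A2003.

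Oas2 was called only at 168 h, but the difference between times was itself called with each oligonucleotide. Within PBS, Oas2 changed by -0.81 ± 0.39 from 72 h to 168 h, without a call, which is part of that difference. It stood at 26.7, 31.4, 28.5 and 12.1 CPM with LX-A1656, 12.8, 11.7, 12.7 and 26.0 CPM with LX-A2003 and 18.0, 9.87, 5.47 and 9.69 CPM with LX-A3928 at 168 h, against 0.879, 5.79, 2.42 and 4.82 CPM with PBS. LX-A1656 and LX-A2003 libraries lay above PBS and LX-A3928 libraries overlapped PBS. The LX-A2003 change was 2.16 ± 0.37, and 1.81 ± 0.37 without replicate 4, the highest library, still called. At 72 h with LX-A1656 the Oas2 change was 0.74 ± 0.35, and 0.98 ± 0.35 without replicate 1 (adjusted p = 0.0226), where it passed the threshold. Eif2ak2 was called in none of the 9 comparisons. Without LX-A2003 replicate 4 its 168 h value with LX-A2003, -0.58 ± 0.38, became -1.32 ± 0.38 (adjusted p = 0.00352), a call of lower.

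Of the 5 tested genes of the ISG15 system and ubiquitin ligases, Usp18, Trim30a and Rnf213 were called higher with LX-A1656 at 72 h and with all 3 oligonucleotides at 168 h. Usp18 removes ISG15 from proteins and dampens the type I interferon receptor. Its level was 63.7, 49.1, 46.5 and 60.0 CPM with LX-A1656 at 72 h, 13.2, 15.0, 20.4 and 13.8 CPM with LX-A2003 and 20.8, 17.6, 14.3 and 16.4 CPM with LX-A3928, against 3.90, 5.63, 7.46 and 6.38 CPM with PBS. No oligonucleotide library overlapped PBS, and the LX-A3928 change of 1.56 ± 0.21 was the largest called with that oligonucleotide at 72 h. At 168 h Usp18 was 62.0, 69.2, 78.0 and 65.0 CPM with LX-A1656, 26.3, 23.6, 28.9 and 33.6 CPM with LX-A2003 and 26.8, 31.0, 62.0 and 32.1 CPM with LX-A3928, against 3.39, 4.45, 4.57 and 4.06 CPM with PBS. On the log2 scale the changes were 4.05 ± 0.23, 2.77 ± 0.22 and 3.19 ± 0.22.

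Rnf213, a very large ubiquitin ligase gene and the one with the highest mean level of its group, was 185, 149, 159.8 and 154 CPM with LX-A1656 at 72 h, 76.0, 66.5, 61.4 and 63.6 CPM with LX-A2003 and 60.6, 52.4, 47.4 and 33.8 CPM with LX-A3928, against 44.9, 48.8, 38.4 and 44.2 CPM with PBS. At 168 h Rnf213 was 64.2, 60.8, 59.3 and 28.5 CPM with LX-A1656, 115, 84.9, 114 and 82.9 CPM with LX-A2003 and 97.4, 145, 84.9 and 134 CPM with LX-A3928, against 27.0, 41.9, 38.1 and 42.1 CPM with PBS. The LX-A1656 libraries overlapped PBS at 168 h through replicate 4, and the libraries of the other 2 oligonucleotides lay above PBS. The LX-A1656 call, 0.52 ± 0.18 (adjusted p = 0.0113), was lost without LX-A1656 replicate 1 (adjusted p = 0.057) or PBS replicate 1 (adjusted p = 0.0713). The LX-A2003 call at 72 h, 0.60 ± 0.18, was lost without LX-A2003 replicate 1 or PBS replicate 3, and with scaling by library totals.

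Herc6, the main ISG15 ligase gene of mouse, was called in no comparison with PBS, and its log2 fold change ranged from -0.83 to 1.05. The last value, of LX-A3928 at 168 h, passed the threshold without LX-A3928 replicate 2 or 4 or PBS replicate 2 or 4, and that of LX-A1656 at 72 h, 0.91 ± 0.43, passed it without PBS replicate 3. Trim25, a ubiquitin ligase that acts on the RNA sensor RIG-I, was called once, with LX-A2003 at 168 h (0.38 ± 0.16, adjusted p = 0.0418), and that call was lost without LX-A2003 replicate 1 or 4 or PBS replicate 1, 3 or 4. Trim30a was called higher by 1.70 ± 0.28 with LX-A3928 at 168 h and by 1.04 ± 0.23 without replicate 3.

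Parp9 and Dtx3l, divergent neighbours on chromosome 16 whose products form an ADP-ribosyltransferase and ubiquitin ligase complex, differed between oligonucleotides at 168 h. Dtx3l was 24.0, 24.6, 25.9 and 15.6 CPM with LX-A1656, 41.5, 25.7, 41.0 and 54.5 CPM with LX-A2003 and 57.9, 39.0, 80.4 and 30.6 CPM with LX-A3928, against 30.9, 38.3, 30.9 and 36.6 CPM with PBS. The LX-A1656 libraries lay below all PBS libraries, and the LX-A3928 libraries ran on both sides of PBS. The log2 fold change was -0.60 ± 0.19 with LX-A1656 (adjusted p = 0.0046) and 0.60 ± 0.18 with LX-A3928 (adjusted p = 0.00623). The LX-A1656 call was lost with scaling by library totals, and the LX-A3928 value was 0.31 ± 0.17 without replicate 3 (adjusted p = 0.127).

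Parp9, the higher of the group by mean level, was 103, 149.8, 139 and 164 CPM with LX-A1656 at 72 h, against 67.1, 82.9, 79.2 and 80.8 CPM with PBS, and was called there by 0.84 ± 0.21. At 168 h Parp9 was 52.9, 59.1, 60.0 and 56.3 CPM with LX-A1656, 58.9, 51.5, 62.5 and 93.0 CPM with LX-A2003 and 126, 63.2, 215 and 67.4 CPM with LX-A3928, against 66.5, 76.1, 58.4 and 70.6 CPM with PBS. All 3 groups overlapped PBS at 168 h, and the LX-A3928 value of 0.79 ± 0.21 became 0.33 ± 0.18 without replicate 3 (adjusted p = 0.117). Parp14, another ADP-ribosyltransferase gene, changed by 1.90 ± 0.29 with LX-A1656 at 72 h and by 0.73 ± 0.29, 0.78 ± 0.29 and 1.27 ± 0.29 for LX-A1656, LX-A2003 and LX-A3928 at 168 h. The Parp14 call at 168 h was lost with LX-A1656 without replicate 2 or 3 or PBS replicate 1 or 3, and with LX-A2003 without replicate 4 or PBS replicate 1 or 3.

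The dynamin-like and guanylate-binding GTPases comprised Mx1, Mx2, Gbp2, Gbp3 and Gbp7, which act on incoming viruses or on the vacuoles of intracellular microbes. All 5 were called higher with LX-A1656 at 72 h and with LX-A3928 at 168 h, and 4 of 5 with LX-A1656 and LX-A2003 at 168 h. Gbp3 was 40.0, 43.9, 68.6 and 65.2 CPM with LX-A1656 at 72 h, against 5.60, 5.08, 7.10 and 4.48 CPM with PBS, a change of 3.29 ± 0.38. At 168 h Gbp3 was 19.1, 29.6, 18.5 and 20.7 CPM with LX-A1656, 16.7, 14.8, 18.8 and 31.5 CPM with LX-A2003 and 48.0, 16.2, 129 and 19.1 CPM with LX-A3928, against 5.53, 5.28, 3.36 and 5.84 CPM with PBS. The groups did not overlap PBS. The LX-A3928 change of 3.39 ± 0.38 was the largest called with that oligonucleotide at 168 h, and it was 2.47 ± 0.28 without replicate 3.

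Gbp7, the gene of this group with the highest mean level, varied widely within groups. It was 22.6, 51.4, 63.3 and 58.1 CPM with LX-A1656 at 72 h, against 11.6, 15.9, 15.9 and 22.9 CPM with PBS, and the groups overlapped although the gene was called (1.56 ± 0.43, adjusted p = 0.0024). At 168 h Gbp7 was 14.4, 31.4, 27.6 and 13.8 CPM with LX-A1656, 11.9, 8.63, 7.93 and 41.1 CPM with LX-A2003 and 49.1, 9.80, 59.2 and 15.3 CPM with LX-A3928, against 13.6, 14.5, 6.06 and 17.3 CPM with PBS. High and low libraries stood side by side in each oligonucleotide group. The LX-A3928 call of 1.36 ± 0.43 was 0.94 ± 0.45 without replicate 3 (adjusted p = 0.0805).

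Mx1, whose nuclear protein restricts influenza viruses and which is defective in many laboratory strains of mouse, had few counts. It was 4.00, 5.67, 4.90 and 3.30 CPM with LX-A1656 at 168 h, 1.52, 2.13, 1.78 and 3.56 CPM with LX-A2003 and 1.36, 1.05, 1.58 and 0.671 CPM with LX-A3928, against 0.126, 0.414, 0.135 and 0.381 CPM with PBS, with no overlap. These levels rest on 274, 118 and 54 counts summed over the 4 libraries, against 9 with PBS. On the log2 scale the changes were 3.99 ± 0.48, 3.01 ± 0.50 and 2.03 ± 0.54. At 24 h the 4 LX-A1656 libraries were at 0.257, 0.244, 0 and 0.312 CPM, below PBS at 0.539, 0.677, 0.780 and 1.53 CPM, with 7 counts against 31, and the difference was not called (adjusted p = 0.0576).

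Of the immunity-related GTPases, which act on vacuoles of intracellular microbes in mouse, Igtp was called in opposite directions at 72 h and at 168 h with LX-A1656. At 72 h Igtp was 104, 119.6, 119 and 102 CPM with LX-A1656, 56.5, 72.4, 65.9 and 64.8 CPM with LX-A2003 and 70.7, 60.9, 76.3 and 53.9 CPM with LX-A3928, against 38.8, 37.5, 42.0 and 53.6 CPM with PBS, and every oligonucleotide library was above PBS. The 72 h calls with LX-A2003 (0.59 ± 0.17) and LX-A3928 (0.61 ± 0.17) were each lost without any 1 of 3 libraries, with adjusted p up to 0.0663 and 0.0747. At 168 h Igtp was 7.63, 9.19, 9.97 and 6.27 CPM with LX-A1656, 28.1, 28.4, 34.3 and 36.3 CPM with LX-A2003 and 60.1, 41.1, 79.5 and 45.2 CPM with LX-A3928, against 41.0, 32.4, 34.7 and 39.2 CPM with PBS. LX-A1656 libraries were now far below PBS, LX-A2003 libraries overlapped PBS, and LX-A3928 libraries were above it. The log2 fold changes at 168 h were -2.15 ± 0.19 with LX-A1656 (adjusted p = 7.44e-14), -0.21 ± 0.17 with LX-A2003 (adjusted p = 0.312, and 0.21 with scaling by library totals) and 0.62 ± 0.17 with LX-A3928 (adjusted p = 0.00303). In a fit to the LX-A3928 and PBS libraries at 168 h alone, the LX-A3928 call was lost (adjusted p = 0.0702, edgeR).

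Irgm1, a regulator of the same family, was called higher by 1.50 ± 0.24 with LX-A1656 at 72 h. At 168 h its change with LX-A1656 was 0.02 ± 0.24 and not called, and those with LX-A2003 and LX-A3928, 0.67 ± 0.24 and 1.46 ± 0.24, were called. The LX-A2003 value was 0.39 ± 0.24 without replicate 4 (adjusted p = 0.167), and its call was also lost without PBS replicate 3.

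The other 9 genes were all called higher with LX-A1656 at 72 h. Bst2 encodes tetherin, which holds budding virus at the cell surface, and had the highest mean level of these 9. It was 419, 369, 422 and 396 CPM with LX-A1656 at 72 h, against 258, 259, 234 and 267 CPM with PBS, without overlap, and its change of 0.66 ± 0.11 was the smallest called with LX-A1656 at that time. At 168 h Bst2 was 252, 284, 295 and 359 CPM with LX-A1656, 244, 284, 271 and 234 CPM with LX-A2003 and 322, 358, 335 and 345 CPM with LX-A3928, against 321, 286, 327 and 296 CPM with PBS, with no call. The LX-A2003 libraries lay below all PBS libraries (log2 fold change -0.25 ± 0.11), and the gene was called lower there without LX-A2003 replicate 2 (adjusted p = 0.0372) or PBS replicate 2 (adjusted p = 0.0486). With scaling by library totals the 168 h values changed sign, from negative to positive. They were 0.16, against -0.25 with TMM, for LX-A2003 and 0.42, against -0.05 with TMM, for LX-A1656, where the gene was called higher (adjusted p = 0.00117).

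Ifi35, which encodes a leucine zipper protein induced by interferon, was 53.5, 48.4, 64.5 and 56.0 CPM with LX-A2003 at 168 h, against 37.8, 45.2, 43.6 and 43.9 CPM with PBS, without overlap. That change, 0.38 ± 0.14, was the smallest called with LX-A2003 at 168 h and was lost without LX-A2003 replicate 3 or PBS replicate 1. With LX-A1656 Ifi35 changed by 1.70 ± 0.14 at 72 h, and by 0.03 ± 0.14 at 168 h, where it was not called. Xaf1 was called with each oligonucleotide at both times, by 3.58 ± 0.26, 1.58 ± 0.26 and 0.88 ± 0.26 at 72 h and by 1.50 ± 0.25, 1.66 ± 0.26 and 2.21 ± 0.26 at 168 h. The LX-A3928 call of Xaf1 at 72 h was lost without LX-A3928 replicate 1 or PBS replicate 1 or 4. Rtp4, a receptor chaperone gene, was called in the same 6 comparisons.

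Ifi44, Lgals3bp and Epsti1 were called with LX-A1656 at 72 h and with all 3 oligonucleotides at 168 h. Ddx60, a helicase gene, and Samd9l, a gene whose product restrains translation, were called with LX-A2003 and LX-A3928 at 168 h but not with LX-A1656 at 168 h, where Ddx60 passed the threshold without LX-A1656 replicate 1 or 4. With LX-A3928 the values were 2.72 ± 0.37 for Ifi44, 2.15 ± 0.30 for Ddx60 and 2.45 ± 0.55 for Samd9l. Without replicate 3 they were 2.02 ± 0.32, 1.49 ± 0.24 and 1.50 ± 0.52, all still called. The Samd9l call with LX-A2003 was lost without LX-A2003 replicate 1 or 4 or PBS replicate 2 or 3.

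The time course was tested directly, as the difference between effects against PBS at consecutive times. With LX-A1656 the effect at 72 h was higher than at 24 h for 28 of the 38 genes and lower for none, where 30.2% of all genes were called, 14.2% higher and 16% lower. From 72 h to 168 h the LX-A1656 effect was lower for 18 genes and higher for 3, where 30.1% of all genes were called, 14% higher and 16.1% lower. The genes whose effect was higher at 168 h were Mx1 (2.07 ± 0.69), Oas2 (2.07 ± 0.51) and Usp18 (0.83 ± 0.30). Within PBS these 3 genes changed by -1.16 ± 0.60, -0.81 ± 0.39 and -0.50 ± 0.23 from 72 h to 168 h, without a call. Such falls in PBS are part of these differences. The Mx1 call was lost without PBS 168 h replicate 1 (adjusted p = 0.0509), and the Usp18 call was lost without any 1 of 6 libraries, with adjusted p up to 0.0925. The largest falls were those of Cmpk2 (-3.67 ± 0.28), Igtp (-3.52 ± 0.25) and Ifit1 (-2.97 ± 0.56).

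Of the 31 genes called higher with LX-A1656 at 72 h, 19 were also called higher at 168 h, 11 were not called and 1, Igtp, was called lower. Of all genes tested, 34.1% were called higher and 29.7% lower with LX-A1656 at 168 h. The share among all genes called higher at 72 h was not computed. The 19 included Oas1a, Oas3, Oasl1, Oasl2, Mx1, Mx2, Gbp2, Gbp3, Usp18, Rsad2 and Irf7. The 11 were Bst2, Cmpk2, Ddx60, Gbp7, Ifi35, Ifit1, Irf1, Irf9, Irgm1, Parp9 and Samd9l. Each time had PBS libraries of its own.

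With LX-A2003 the effect was higher at 72 h than at 24 h for 5 genes, Oasl1, Usp18, Cmpk2, Irf7 and Irf9, where 2.71% of all genes were called, 0.994% higher and 1.71% lower. From 72 h to 168 h it was higher for 14 and lower for 1, Igtp, where 29.7% of all genes were called, 15.9% higher and 13.8% lower. With library totals the LX-A2003 effect was higher for 18 and lower for none. The largest rises were those of Mx1 (3.84 ± 0.75), Oas3 (3.16 ± 0.56) and Oas1a (2.69 ± 0.36). Within PBS these genes changed by -1.16, 0.12 and -0.34 from 72 h to 168 h, which is part of the differences. With LX-A3928 the effect was higher at 72 h for Usp18 and Cmpk2, where 1.26% of all genes were called, 0.418% higher and 0.844% lower. From 72 h to 168 h it was higher for 20 genes and lower for none, where 23% of all genes were called, 12.5% higher and 10.5% lower, led by Gbp2 (3.11 ± 0.54), Gbp3 (2.86 ± 0.53) and Rsad2 (2.72 ± 0.40). Within PBS these 3 genes changed by -0.48, -0.14 and -0.79 over the same times. LX-A3928 replicate 3 at 168 h was the highest library of its group for these 3 genes. Without it the values were 2.70 ± 0.51, 1.93 ± 0.40 and 2.49 ± 0.39, all still called, and Oas1a (2.51 ± 0.37) and Oas3 stood between Gbp2 and Rsad2. Within PBS, none of the 38 was called between 24 h and 72 h or between 72 h and 168 h by edgeR or DESeq2, where 0.0789% (0.0473% higher, 0.0316% lower) and 0.0316% (0.00789% higher, 0.0237% lower) of all genes were called, and 2 and 8 genes had an unadjusted p under 0.05.

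**Figure D4:**
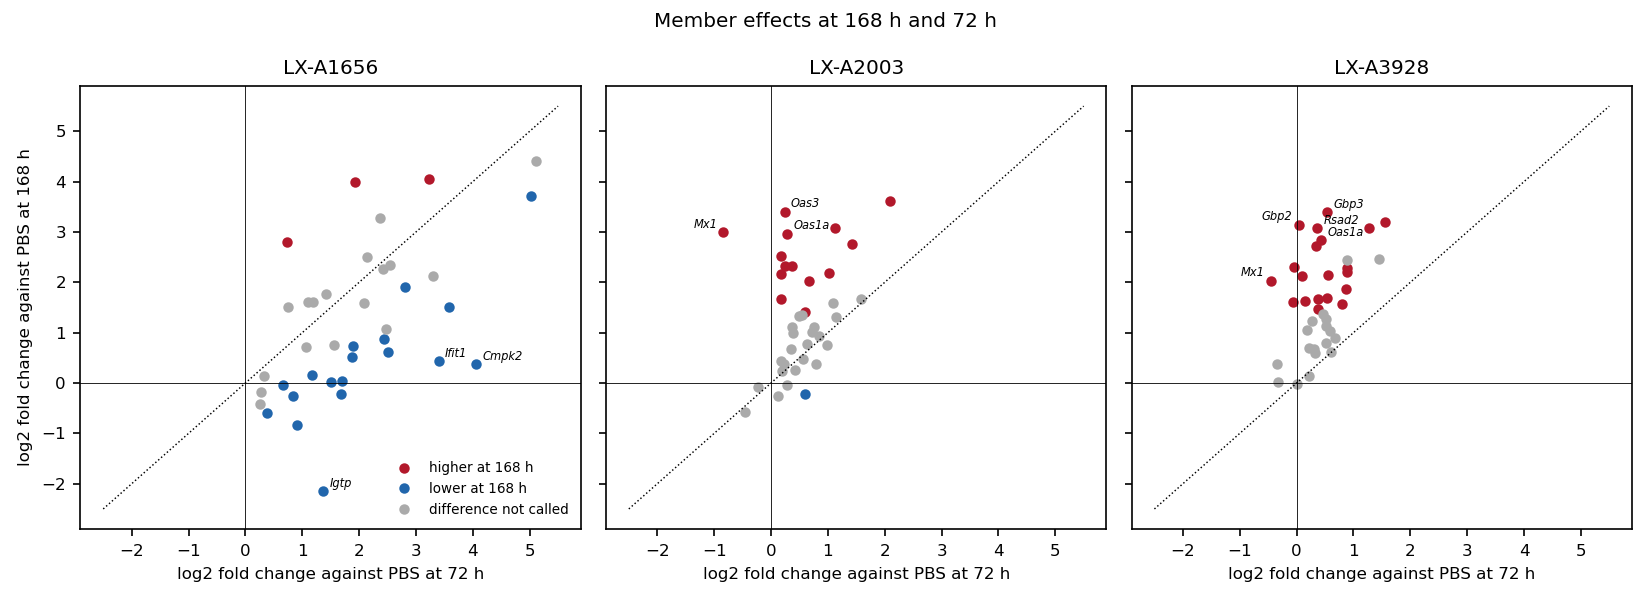
Log2 fold change against PBS at 168 h (vertical) and at 72 h (horizontal) for the 38 genes, 1 panel for each oligonucleotide, with the dotted line marking equal effects. Red and blue mark genes whose effect at 168 h was called higher or lower than at 72 h. With LX-A1656, 18 genes lie below the line in blue and 3 above it in red, and with LX-A3928, 20 lie above it in red.

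The oligonucleotides were compared in pairs at each time, in 9 comparisons with p-values adjusted over all genes within each. With doses not given in the sources used here, the pairs are matched in time only. At 24 h none of the 38 differed between LX-A2003 and LX-A1656 or between LX-A3928 and LX-A2003 by edgeR, and Irf9 was lower with LX-A3928 than with LX-A1656 (-0.52 ± 0.15, adjusted p = 0.0389, edgeR). This call was lost in 7 of 8 fits that left out 1 library. DESeq2 called 2 of the 38 between LX-A2003 and LX-A1656 at 24 h, and none between LX-A3928 and LX-A2003. At an unadjusted p under 0.05, 2 and 2 genes differed in the 2 pairs without a call. Of all genes, 0.284%, 2.9% and 0.15% were called in the 3 pairs. They divided into 0.166% higher and 0.118% lower for LX-A2003 against LX-A1656, 1.5% higher and 1.4% lower for LX-A3928 against LX-A1656, and 0.0631% higher and 0.0868% lower for LX-A3928 against LX-A2003.

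At 72 h, 31 of the 38 were lower with LX-A2003 than with LX-A1656 and 29 were lower with LX-A3928 than with LX-A1656, and none was higher. Of all genes, 35.9% and 40.6% were called in these pairs, 18% higher and 18% lower in the LX-A2003 pair and 20.4% higher and 20.1% lower in the LX-A3928 pair. Rsad2 differed most, by -3.89 ± 0.27 with LX-A2003 and -4.66 ± 0.29 with LX-A3928. Between LX-A3928 and LX-A2003, none of the 38 was called at 72 h by edgeR or by DESeq2, where 0.718% of all genes were (0.292% higher and 0.426% lower), and 6 had an unadjusted p under 0.05. The interval of that difference was -0.44 to 0.19 for Irf7, -0.25 to 0.54 for Usp18 and -1.20 to -0.09 for Oasl1 (95% confidence interval, log2 scale).

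At 168 h the pairs differed in both directions. LX-A3928 was higher than LX-A1656 for 18 genes and lower for 6, where 41.7% of all genes were called, 23.2% higher and 18.5% lower. The 6 were Mx1 (-1.96 ± 0.38), Oasl1 (-1.94 ± 0.26), Oas2, Oas3, Usp18 and Rsad2, and the largest of the 18 were Igtp (2.76 ± 0.19), Ifit1 (2.65 ± 0.39) and Herc6 (1.87 ± 0.45). Without LX-A3928 replicate 3, the highest library of its group for these 3 genes, 15 genes were higher and 8 lower. Igtp was then 2.55 ± 0.18, Ifit1 1.23 ± 0.21 and Herc6 1.32 ± 0.45, all still called, and Cmpk2 (1.42 ± 0.19) was next to Igtp. LX-A2003 was higher than LX-A1656 for 8 genes, led by Igtp (1.94 ± 0.18) and Cmpk2 (1.21 ± 0.19). It was lower for 4, Usp18 (-1.29 ± 0.19), Mx1, Oasl1 and Rsad2 (the last 3 not called in every fit that left out 1 library), where 32.1% of all genes were called, 18.3% higher and 13.8% lower.

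Between LX-A3928 and LX-A2003 at 168 h, 9 genes were higher with LX-A3928 and 2, Oasl1 (-1.15 ± 0.26) and Oas3 (-1.11 ± 0.30), were lower, where 8.1% of all genes were called, 5.33% higher and 2.77% lower. This count rested on single libraries. It was 2 without LX-A3928 replicate 3, 7 without LX-A2003 replicate 2 and 17 without LX-A3928 replicate 2. The Oas3 call was lost without LX-A3928 replicate 3 or LX-A2003 replicate 2. A fit to the libraries of these 2 groups alone called none. Scaling by library totals left 5 genes higher and 2 lower, and moved the median of all genes to -0.11.

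Interferon genes themselves were near the limit of detection. Of 21 listed ligand genes, 16 had a row, and summed over 4 libraries they gave 12, 35 and 53 counts at 24 h for LX-A1656, LX-A2003 and LX-A3928, against 3 with PBS. At 72 h, where the set was highest with LX-A1656, they gave 45, 46 and 65 counts in the same order, against 22 with PBS. In CPM the groups overlapped, at 0.521 to 1.45, 0.400 to 2.12 and 0.561 to 4.09 CPM, against 0.199 to 1.21 CPM with PBS. LX-A3928 replicate 2 held the 4.09 CPM, and the others of its group were at 0.561 to 1.24 CPM. These counts give no order of the oligonucleotides at 72 h. At 24 h, on few counts, every oligonucleotide library (0.265 CPM or more) was above every PBS library (0.223 CPM or less). At 168 h the ligand genes gave 127, 104 and 66 counts, against 9 with PBS. Every oligonucleotide library (1.06 CPM or more) was again above every PBS library (0.673 CPM or less). Ifnk, a type I interferon best known from skin, accounted for 76, 40 and 14 of the 168 h counts in the same order, against 1 count with PBS. Scaled for depth, the ratios were 41.8 (95% interval 7.28 to 1674), 25.6 (4.34 to 1037) and 9.58 (1.46 to 405), which cover counting error only. At 72 h Ifnk gave 27, 4 and 8 counts, against 4 with PBS, and the ratio with LX-A1656 was 5.07 (1.77 to 19.9). Ifng gave 8, 12 and 3 counts at 168 h with the same oligonucleotides, against 1 with PBS, and Ifnb1 gave 6, 6 and 3 counts, against 2 with PBS. Differences in these last 2 genes were not detectable at this depth except that the ratio for Ifng with LX-A2003 was 7.69 (1.14 to 329).

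The interferon-inducible chemokine genes Cxcl9, Cxcl10, Cxcl11 and Ccl5, whose products attract T cells and NK cells, are themselves induced by interferon. All 4 were called higher with LX-A1656 at 72 h, and the number was 1 for LX-A2003 and 1 for LX-A3928. At 168 h it was 2, 3 and 3 of 4. The shares of all genes called higher were 24.7%, 5.48% and 4.47% at 72 h and 34.1%, 29.8% and 27.3% at 168 h. Cxcl10 was 222, 296, 194 and 201 CPM with LX-A1656 at 72 h, against 6.09, 4.20, 5.05 and 6.08 CPM with PBS, and its log2 fold change was 5.41 ± 0.29. At 168 h the Cxcl10 changes were 1.48 ± 0.28, 2.59 ± 0.28 and 2.73 ± 0.28 for LX-A1656, LX-A2003 and LX-A3928. Cxcl9 was 146, 46.0, 548 and 141 CPM with LX-A3928 at 168 h and 4.22, 16.7, 12.2 and 7.80 CPM with LX-A1656, against 22.4, 12.6, 10.8 and 11.7 CPM with PBS. LX-A1656 libraries overlapped PBS, and LX-A3928 replicate 3 was again the highest.

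Of 15 tested receptor and signalling genes, 7 were called higher and 1 lower with LX-A1656 at 72 h, 1 higher and 1 lower with LX-A2003, and 1 higher with LX-A3928. At 168 h, 10 were higher and 4 lower with LX-A1656, 6 and 2 with LX-A2003, and 5 and 2 with LX-A3928. The shares of all genes called in either direction were 48.2%, 12% and 9.8% at 72 h and 63.9%, 55.1% and 48% at 168 h. Irf8, a transcription factor of macrophages and dendritic cells, changed by 2.64 ± 0.22, 2.92 ± 0.22 and 2.32 ± 0.22 at 168 h. The interferon gamma receptor genes Ifngr1 and Ifngr2 changed by 1.66 and 1.38 with LX-A1656 at 72 h.

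Of 17 tested genes for sensing of nucleic acids, 12 were higher and 2 lower with LX-A1656 at 72 h, 4 were higher with LX-A2003 and 4 with LX-A3928. At 168 h, 13 were higher and 2 lower with LX-A1656, 12 and 2 with LX-A2003, and 14 and 1 with LX-A3928. Over all genes, 48.2%, 12% and 9.8% were called in either direction at 72 h and 63.9%, 55.1% and 48% at 168 h. Dhx58, the regulator LGP2 of RNA sensing, changed by 2.80 ± 0.16 with LX-A1656 at 72 h and by 1.06 ± 0.15 at 168 h. Zbp1, a sensor of Z-form nucleic acid, changed by 3.65 ± 0.27 and 0.59 ± 0.27. Mavs, the adaptor of the RNA sensors on mitochondria, moved the other way, by -1.04 ± 0.14 with LX-A1656 at 72 h and by -1.67 ± 0.14, -0.92 ± 0.14 and -0.95 ± 0.14 for LX-A1656, LX-A2003 and LX-A3928 at 168 h.

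A further list of 56 interferon-stimulated genes, 44 of them tested, gave 2 called higher with each oligonucleotide at 24 h, Apol9a and Apol9b in each case. At 72 h 33 were called higher with LX-A1656, 5 higher and 1 lower with LX-A2003, and 4 higher with LX-A3928. At 168 h 19 were higher and 7 lower with LX-A1656, 29 were higher with LX-A2003 and 32 with LX-A3928. Called in either direction over all genes were 2.86%, 2.09% and 3.26% at 24 h, 48.2%, 12% and 9.8% at 72 h and 63.9%, 55.1% and 48% at 168 h. Apol9a changed by 0.81 ± 0.17, 0.61 ± 0.17 and 0.85 ± 0.17 at 24 h for LX-A1656, LX-A2003 and LX-A3928. Tor3a and Slfn2 rose with LX-A1656 by 2.01 and 1.29 at 72 h and by 2.86 and 3.90 at 168 h, and the difference between times was not tested for these 2 genes.

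Markers of cell types moved with the groups. The 6 hepatocyte markers with a row summed to 26547 to 40870 CPM with LX-A1656, 23706 to 30357 CPM with LX-A2003 and 21616 to 76911 CPM with LX-A3928 at 168 h, against 51354 to 68218 CPM with PBS. The 76911 CPM was that of LX-A3928 replicate 3, and the others of its group were at 21616 to 32583 CPM, below all PBS libraries. The 7 monocyte and recruited macrophage markers summed to 698 to 1046 CPM, 372 to 473 CPM and 259 to 578 CPM in the same order, against 118 to 161 CPM with PBS, and 6, 7 and 7 of the 7 were called higher, where 34.1%, 29.8% and 27.3% of all genes were. LX-A3928 replicate 3 had the highest sum of its group. At 72 h with LX-A1656, where the set was highest, that sum was 199 to 264 CPM, against 123 to 132 CPM with PBS, and 5 of 7 were called higher. The hepatocyte sum at 72 h was 33298 to 46490 CPM with LX-A1656, below the 52957 to 60392 CPM of PBS. It was 53317 to 55522 CPM with LX-A2003 and 52953 to 84360 CPM with LX-A3928, which overlapped PBS.

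Kupffer cell markers, 8 with a row, summed to 505 to 798 CPM, 559 to 750.0 CPM and 468 to 701 CPM at 168 h, against 250.0 to 302 CPM with PBS, and to 212 to 239 CPM with LX-A1656 at 72 h, against 228 to 257 CPM with PBS at 72 h. Sinusoidal endothelial markers were lower, with 5 of 7 called lower with LX-A1656 at 72 h and sums of 65.3 to 79.9 CPM, against 289 to 328 CPM with PBS. Of 6 stellate cell markers, 4, 4 and 3 were called higher at 168 h and 1 lower with LX-A1656. At 168 h 63.9%, 55.1% and 48% of all genes were called in either direction, 34.1%, 29.8% and 27.3% higher, and with LX-A1656 at 72 h 23.4% were called lower. Neutrophil markers summed to 19.7 to 42.1 CPM with LX-A1656, 9.86 to 16.6 CPM with LX-A2003 and 9.47 to 43.8 CPM with LX-A3928 at 168 h. The 43.8 CPM was that of LX-A3928 replicate 3. With PBS at 168 h they summed to 4.03 to 6.19 CPM, where Ly6g was at 0. At 72 h the neutrophil sums were 18.3 to 21.6 CPM, 4.97 to 8.60 CPM and 6.41 to 13.7 CPM in the same order, against 3.85 to 6.21 CPM with PBS. T cell, NK cell and B cell sums had means under 10 CPM in every group, and the NK marker Klra8 was at 0 in all 12 groups. The plasmacytoid dendritic cell list summed to 463 to 644 CPM with LX-A1656 at 168 h, against 314 to 341 CPM with PBS. It was 448 to 587 CPM with LX-A2003 and 427 to 547 CPM with LX-A3928. The list contains Bst2, a gene of the set. With TMM scaling, Bst2 itself was not called at 168 h, and its LX-A1656 libraries overlapped PBS. The part of cell composition in the changes above was not tested.

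**Figure D5:**
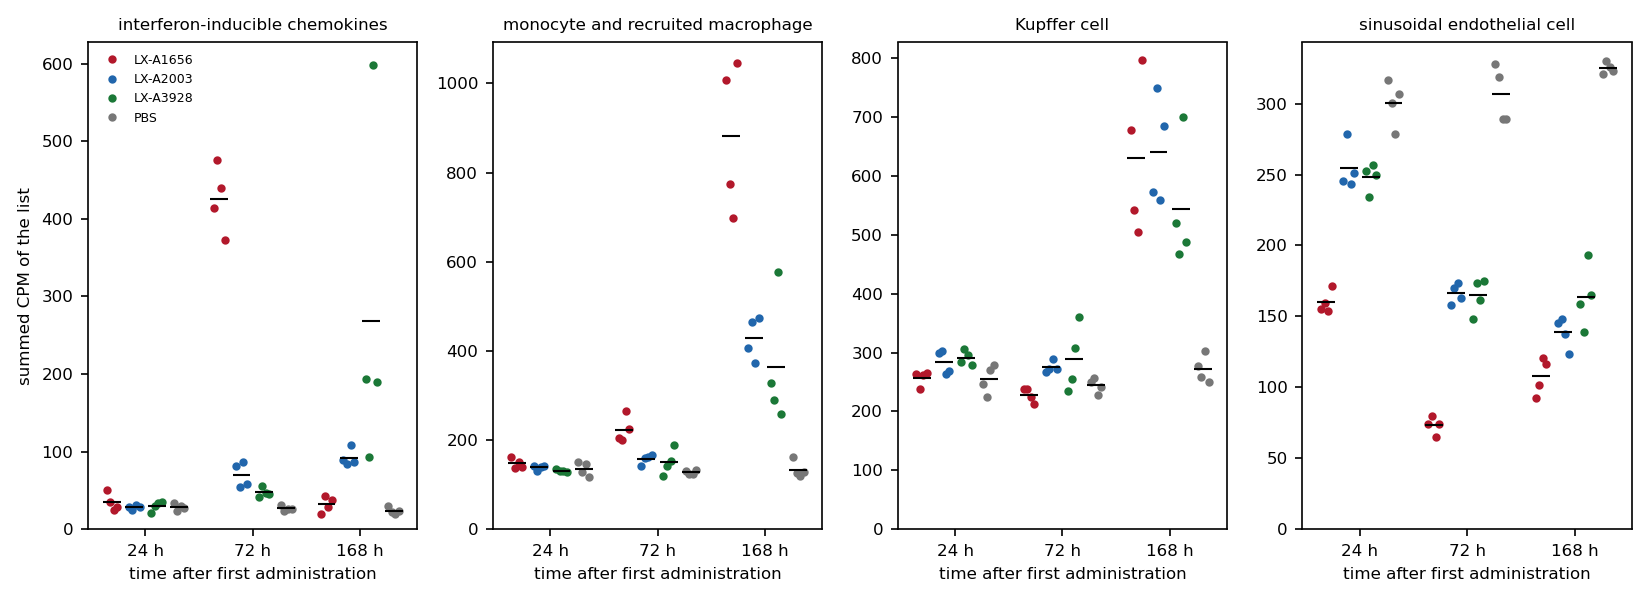
Summed CPM of 4 lists in every library (dots) with the mean of 4 (bar), by time after first administration, oligonucleotides left of PBS. The chemokine sum is highest at 72 h with LX-A1656 and in 1 LX-A3928 library at 168 h, the macrophage sums are highest at 168 h, and the endothelial sum is below PBS in the oligonucleotide groups.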

How the data were processed

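Liver RNA was extracted with TriPure after bead homogenization and amplified as 1 fragment per gene with the Ion AmpliSeq mouse transcriptome kit, per the labels' protocols. The authors deposited whole-number read counts per gene and library, with no normalization. The counts came with an aligner, a counting tool and a genome build not given in the sources used here. Reads carry no molecular identifiers, so counting intervals and floors cover counting error only.

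Counts were analysed with edgeR 4.0.16 in R 4.3.3. Of 23930 genes, 12672 passed filterByExpr over the 12 groups, and they held at least 99.891% of the counts of each library. Totals were 8140065 to 17191129 counts, with a median of 10659453. With TMM factors, 1 robust quasi-likelihood model of 12 groups was fitted to 48 libraries, with 36 residual degrees of freedom, and 26 comparisons were drawn from it. P-values were adjusted by Benjamini-Hochberg over all tested genes within each comparison. The SE of a log2 fold change is its size divided by the square root of F. CPM were computed from the counts with TMM-scaled totals. Promoter motifs and summaries were made with Python 3.11.15. The model was tested on simulated data.

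The genes and gene lists were chosen with earlier results of these data known. Per-library values are given for the gene of each role with the highest mean CPM, for the largest and smallest called change in each comparison with PBS, and for genes called against the majority. Cmpk2, Ddx60, Eif2ak2, Gbp2, Herc6, Ifi44, Ifit1, Ifit2, Irf7, Irgm1, Mx1, Oas1a, Oas2, Oas3, Parp14, Rtp4, Samd9l, Stat2, Trim25 and Trim30a were named in addition, after their values were seen. Pathway genes are named by smallest p, except Mavs, Ifngr2, Apol9b, Ifng and Ifnb1, also named after their values were seen. Alternatives were RLE scaling, library totals, no filter, DESeq2 1.42.0, a replicate block, only the compared groups, and leaving out each library. 3 listed genes were not analysed here.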

Additional observations from a re-analysis of the deposited data

Results flagged for a closer look

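Of 456 sets of 4 libraries, 1 for each gene and group, 28 held a library whose gap to the nearest other passed Dixon's 95% critical value. Chance flags about 1 set in 20. LX-A2003 replicate 4 at 168 h accounted for 6 of the 28, namely Ifit2 at 4.43 CPM against 1.3 to 1.43 CPM in the others, Oas2 at 26 CPM against 11.7 to 12.8 CPM in the others, Eif2ak2 at 15.2 CPM against 3.1 to 5.01 CPM in the others, Gbp2 at 13.4 CPM against 6.21 to 6.59 CPM in the others, Gbp7 at 41.1 CPM against 7.93 to 11.9 CPM in the others and Ifi44 at 54.2 CPM against 18.7 to 22.8 CPM in the others. LX-A3928 replicate 3 at 168 h accounted for 3, namely Ifit1 at 259 CPM against 27.7 to 41.4 CPM in the others, Usp18 at 62 CPM against 26.8 to 32.1 CPM in the others and Samd9l at 10.8 CPM against 1.97 to 2.26 CPM in the others. LX-A1656 replicate 4 at 168 h accounted for another 3, in which it was the lowest, namely Oasl2 at 11.7 CPM against 20.2 to 21.8 CPM in the others, Rnf213 at 28.5 CPM against 59.3 to 64.2 CPM in the others and Rtp4 at 52.1 CPM against 66.8 to 68.2 CPM in the others.

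The other 16 were spread over 15 libraries. At 168 h, Irf7 was 110 CPM in LX-A1656 replicate 1, against 84.8 to 87.4 CPM in the others of its group, and Cmpk2 was 15.9 CPM in PBS replicate 3, against 8.5 to 9 CPM in the others of its group. Rtp4 was 54.9 CPM in LX-A2003 replicate 1, against 75 to 77.6 CPM in the others of its group. At 72 h, Parp9 was 68 CPM in LX-A2003 replicate 1, against 100 to 105 CPM in the others of its group, and Rtp4 was 73.3 CPM in LX-A3928 replicate 1, against 58 to 60.4 CPM in the others of its group. Epsti1 was 5.38 CPM in LX-A1656 replicate 1, against 4.08 to 4.1 CPM in the others of its group, and Epsti1 was 4.97 CPM in LX-A2003 replicate 4, against 2.27 to 2.4 CPM in the others of its group. At 24 h, Irf7 was 36.7 CPM in LX-A1656 replicate 3, against 25.6 to 27 CPM in the others of its group, and Stat2 was 77.6 CPM in LX-A2003 replicate 1, against 58.5 to 61 CPM in the others of its group. Oas1a was 4.76 CPM in LX-A1656 replicate 2, against 3.09 to 3.32 CPM in the others of its group, and Trim25 was 57.2 CPM in LX-A1656 replicate 3, against 41.1 to 43.5 CPM in the others of its group. Mx1 was 0.684 CPM in LX-A3928 replicate 2, against 0.395 to 0.425 CPM in the others of its group, and Gbp3 was 4.9 CPM in LX-A3928 replicate 1, against 7.06 to 7.46 CPM in the others of its group. Irgm1 was 19.6 CPM in LX-A1656 replicate 4, against 17.2 to 17.5 CPM in the others of its group, and Irgm1 was 14.1 CPM in LX-A2003 replicate 3, against 18.8 to 19.3 CPM in the others of its group. Bst2 was 236 CPM in PBS replicate 1, against 276 to 282 CPM in the others of its group.

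Effects against PBS differed between times by the test of the difference itself in all 6 comparisons of consecutive times (edgeR, adjusted p under 0.05). With LX-A1656, 28 genes differed between 72 h and 24 h and 21 between 168 h and 72 h. With LX-A2003 the numbers were 5 and 15, and with LX-A3928 they were 2 and 20.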

How the results depend on the processing

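None of the 343 calls of the 38 genes over 26 comparisons changed direction under scaling by library totals, RLE scaling, no filter, DESeq2, the replicate block or only the compared groups, or in the 3472 values of these calls with 1 library left out. Of 645 values without a call, 53 changed sign with library totals, and 3 to 6 with each of the other settings. Among 6256 such values with 1 library left out, 407 did. In 2 cases the value was then called. Bst2 with LX-A1656 at 168 h was 0.42 with library totals, against -0.05, and Trim30a in LX-A3928 against LX-A1656 at 168 h was -0.57 without LX-A3928 replicate 3, against 0.08. Of the 144 calls of the 38 genes against PBS, 144 held with RLE scaling, 144 with DESeq2, 143 with the replicate block, 141 with library totals, 137 with no filter on low counts and 134 with only the libraries of the compared groups. Of 1152 values with 1 library left out, 68 lost their call, and 22 of the 144 calls were lost in at least 1 such fit.

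Counts of genes called that moved by over 1.5 times were mostly those at 24 h. For LX-A1656 against PBS at 24 h, with 2 called, library totals gave 1, no filter 1 and only the compared groups 6. For LX-A2003 against PBS at 24 h, with 1 called, DESeq2 gave 2 and only the compared groups 4. For LX-A3928 against PBS at 24 h, with 1 called, the replicate block gave 2, DESeq2 2 and only the compared groups 6. For LX-A2003 against LX-A1656 at 24 h, with 0 called, DESeq2 gave 2 and only the compared groups 1. For LX-A3928 against LX-A1656 at 24 h, with 1 called, library totals gave 0, no filter 0 and only the compared groups 7. At 168 h, LX-A3928 against LX-A1656 gave 15 with only the compared groups, against 24. LX-A3928 against LX-A2003 at 168 h gave 7 with library totals and 0 with only the compared groups, against 11. The LX-A2003 effect at 72 h against 24 h gave 9 with only the compared groups, against 5, and that of LX-A3928 gave 4 with DESeq2 and 5 with only the compared groups, against 2. The cause was not tested.

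With 1 library left out, the counts ranged from 1 to 2 for LX-A1656 against PBS at 24 h, from 0 to 2 for LX-A2003 against PBS at 24 h and from 0 to 1 for both pairs with LX-A1656 at 24 h. They ranged from 2 to 17 for LX-A3928 against LX-A2003 at 168 h.

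Same-numbered libraries of different groups did not deviate together. Over 264 such pairs the median correlation of their deviations was 0.00736 and the lowest -0.727, and 11 of 48 libraries correlated best with their own number. The replicate block is thus a check on calls only, and the call it lost was Samd9l with LX-A2003 at 168 h (adjusted p = 0.0515, edgeR). Genes under a few CPM, such as Mx1 and Ifit2, rest on few counts, and depth limits what can be said of them and of the interferon genes.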

Other observations

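Some of the 38 genes, picked only after the values were examined, varied together between libraries of the same group. At 168 h with LX-A3928, Gbp7 was 49.1, 9.80, 59.2 and 15.3 CPM, Parp9 126, 63.2, 215 and 67.4 CPM and Eif2ak2 15.4, 5.27, 30.2 and 5.22 CPM in replicates 1 to 4, so that replicates 1 and 3 were high for all of them. In the same libraries Rnf213 was 97.4, 145, 84.9 and 134 CPM and Oasl1 22.1, 36.8, 22.9 and 39.1 CPM, and replicates 2 and 4 were the high ones. At 168 h with LX-A2003, Gbp7 was 11.9, 8.63, 7.93 and 41.1 CPM, Parp9 58.9, 51.5, 62.5 and 93.0 CPM and Eif2ak2 3.10, 5.01, 4.63 and 15.2 CPM, with replicate 4 the highest for each. At 72 h with LX-A1656, Gbp7 was 22.6, 51.4, 63.3 and 58.1 CPM and Parp14 30.9, 67.2, 92.9 and 73.6 CPM, with replicate 1 the lowest for each. The highest library of that group was replicate 3 for Gbp7 and Parp14, replicate 4 for Parp9 and replicate 2 for Eif2ak2. No test was made of this pattern.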
